A study of Mus musculus with 8 samples.

Results

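Heat shock chaperones were followed across the blood monocyte subsets of the mouse as a set of 10 genes chosen by symbol: Hspa1a, Hspa1b, Hspa8, Hsph1, Dnajb1, Hsp90aa1, Hsp90ab1, Hspb1, Hspd1 and Hspe1. A probe set belonged to the set when the array annotation gave it exactly 1 of these symbols. Of the 10 genes, 9 had such a probe set, out of 18193 genes with a probe set of 1 symbol, and Hsp90ab1 was not analysed here. The 9 genes were measured by 22 probe sets.

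The samples were 4 of Gr1lo (Ly6Clo) monocytes and 4 of Gr1hi (Ly6Chi) monocytes, all from 12-week-old C57Bl/6 mice. For each sort the leukocytes of 5 mice were pooled, and 4 separate sorts gave the 4 samples of each subset, so every value is the average of a pool of animals and of many cells. Sorted cells went into TRIzol, and RNA was amplified by an in vitro transcription lengthened to 64 h from 4 h, labelled with biotin and hybridised to Affymetrix arrays that read the 3' end of transcripts, 1 array per sample. Values are probe set intensities, a measure of brightness on a linear scale that cannot be compared between probe sets, and differences are Gr1lo minus Gr1hi on the log2 scale. Sorting stress and subset cannot be told apart in this design, because every sample was a sorted sample of 1 subset and no unsorted cells were measured.

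Markers of both subsets were read as a description, since their lists were chosen with earlier results of these data known. All 7 tested markers of classical monocytes were higher in Gr1hi, and their summed intensity was 3456 to 4571 in Gr1lo against 41748 to 46607 in Gr1hi. Of 11 tested markers of nonclassical monocytes, 10 were higher in Gr1lo, and the sum of the 11 was 43111 to 47489 in Gr1lo against 11118 to 13784 in Gr1hi. The remaining marker, Cx3cr1, overlapped between subsets and did not pass the test, at a log2 difference of 0.32 (limma adjusted p 0.106). Array medians ran from 80.51 to 82.99, and no array was a copy of another. Probe sets brighter than the table's median value, 81.9, in 4 or more of the 8 arrays were tested, which left 22831 of 45037. The test was limma's moderated two-sided test, its p-values adjusted by Benjamini and Hochberg's method across these 22831, and "called" means an adjusted p under 0.05. In a bulk sample, fewer cells of a type and less RNA per cell cannot be told apart.

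Heat shock proteins are chaperones, proteins that bind other proteins while they are unfolded. The cytosolic HSP70 machine consists of an HSP70 (the stress-inducible Hspa1a and Hspa1b, and the constitutive Hspa8), a J-domain protein that brings substrate and triggers ATP hydrolysis (Dnajb1, an HSP40), and a nucleotide exchange factor that resets the cycle (Hsph1, HSP110). HSP90 (the inducible Hsp90aa1 and the constitutive Hsp90ab1) takes over signalling proteins such as kinases and steroid receptors from HSP70. Hspb1 (HSP27) is a small heat shock protein that holds unfolded proteins without ATP, and Hspd1 (HSP60) and Hspe1 (HSP10) form the folding chamber and its lid in the mitochondrial matrix. When unfolded proteins accumulate, the transcription factor HSF1 is released from these chaperones and binds heat shock elements, rows of the unit GAA and its reverse complement TTC, in front of many of these genes.

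The members' promoters were read for that element, because it is what the inducible genes of the set share by textbook knowledge. The search took the 250 bases before each RefSeq transcript start (build GRCm38.p6) for GAANNTTC or TTCNNGAA, where N is any base. Each motif is its own reverse complement, so both strands were covered, and neighbouring matches can overlap when units follow in a row. Of the 10 genes, 7 had a promoter entry, with 10 windows in all, and 6 of the 7 held at least 1 match in a window. Among all 27025 genes with a window, 14.5% held a match in at least 1 window, as did 12.8% of all 32851 windows. A match is a description of letters and not a bound site.

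The windows of Hspa1a and Hspa1b are shown first, because the annotation gives these neighbouring genes separate probe sets. Hspa1a lies at chr17:34969359-34972156 and Hspa1b at chr17:34956429-34959238, both on the minus strand and 10120 bases apart. Their windows, chr17:34972157-34972406 and chr17:34959239-34959488, differ at 3 of 250 bases, and both hold 1 match, 104 to 97 bases before the start, at the same place (capitals mark the match in all sequences below).
Hspa1a promoter: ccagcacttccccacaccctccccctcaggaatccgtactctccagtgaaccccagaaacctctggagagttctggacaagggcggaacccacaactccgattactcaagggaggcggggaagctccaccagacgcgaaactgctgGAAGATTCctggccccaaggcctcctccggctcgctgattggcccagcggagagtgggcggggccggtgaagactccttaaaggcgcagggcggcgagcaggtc
Hspa1b promoter: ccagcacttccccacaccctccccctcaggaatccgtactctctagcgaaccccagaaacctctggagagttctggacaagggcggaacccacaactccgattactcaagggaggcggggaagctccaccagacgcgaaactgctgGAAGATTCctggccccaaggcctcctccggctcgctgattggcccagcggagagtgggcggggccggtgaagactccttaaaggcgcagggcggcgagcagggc

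Hspd1 and Hspe1 stand head to head on chromosome 1 on opposite strands, and their gene bodies, chr1:55077833-55088243 and chr1:55088148-55091317, share 96 bases. They have the longest row of units among the members: 4 units in a row over 18 bases, a row that only 7 of all 32851 windows (0.0213%) reach. The row is the same stretch of DNA for both genes, chr1:55088053-55088082 with its flanks, and is printed once on each gene's strand. It lies 89 to 72 bases before the Hspe1 start, and 144 to 127 bases before the inner of the 2 Hspd1 starts.
Hspe1 site (plus strand): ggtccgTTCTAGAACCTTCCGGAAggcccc
Hspd1 site (minus strand): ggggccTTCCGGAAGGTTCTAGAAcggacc

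Hsph1 (chr5:149616843-149636498, minus strand) has 1 match, at chr5:149636351-149636380 with its flanks. It lies 54 to 47 bases before the inner of its starts with a window and 33 to 26 bases before the other. Neither is the outermost start, so the match lies inside the gene body given here. Hspb1 (chr5:135887919-135889563, plus strand) has 2 matches in its window, chr5:135887669-135887918, which start 117 and 97 bases before the gene. No match stands in the windows of Dnajb1, and no promoter of Hspa8, Hsp90aa1 or Hsp90ab1 is shown.
Hsph1 site (minus strand): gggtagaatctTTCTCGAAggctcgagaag
Hspb1 promoter: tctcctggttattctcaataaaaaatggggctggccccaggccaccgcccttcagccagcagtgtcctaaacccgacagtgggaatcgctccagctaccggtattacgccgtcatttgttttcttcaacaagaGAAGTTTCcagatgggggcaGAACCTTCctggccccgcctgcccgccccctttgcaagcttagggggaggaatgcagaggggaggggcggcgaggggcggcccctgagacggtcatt

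By their brightest tested probe sets, Hspa1b (HSP70), Hsph1 (HSP110), Dnajb1 (HSP40) and Hsp90aa1 (HSP90) were higher in Gr1lo monocytes, the mitochondrial lid Hspe1 was higher in Gr1hi monocytes, and Hspa8, Hspb1 and Hspd1 were not called. Hspa1a was not tested, and a dim probe set of Hspa8 was called higher in Gr1lo. Of the 22 probe sets, 19 were tested, from 8 genes, and 13 were called, where 31.1% of all tested probe sets were. Of the 19 tested, 11 were called higher in Gr1lo, where 15.2% of all tested probe sets were. Another 2 were called higher in Gr1hi, where 15.9% of all tested probe sets were. Among the 11, the dim Hspa8 probe set and the dimmer Hspa1b ones passed the intensity filter through their Gr1lo arrays. Counted per gene by the brightest tested probe set, 4 of 8 were higher in Gr1lo (Hspa1b, Hsph1, Dnajb1 and Hsp90aa1; background 14.1% of 11546 genes) and 1 was higher in Gr1hi (Hspe1; background 18.5%). The median log2 difference of the 8 genes was 0.26, and that of all tested genes was -0.01.

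The subsets did not overlap at 9 of the 19 probe sets. At 7 of them every Gr1lo array lay above every Gr1hi array, where 15.4% of all tested probe sets did so, and at the 2 probe sets of Hspe1 every Gr1lo array lay below every Gr1hi array, where 16.4% did. At 4 called probe sets the subsets overlapped: 2 of Hspa1b, 1 of Hsph1 and 1 of Hspa8.

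**Figure D1:**
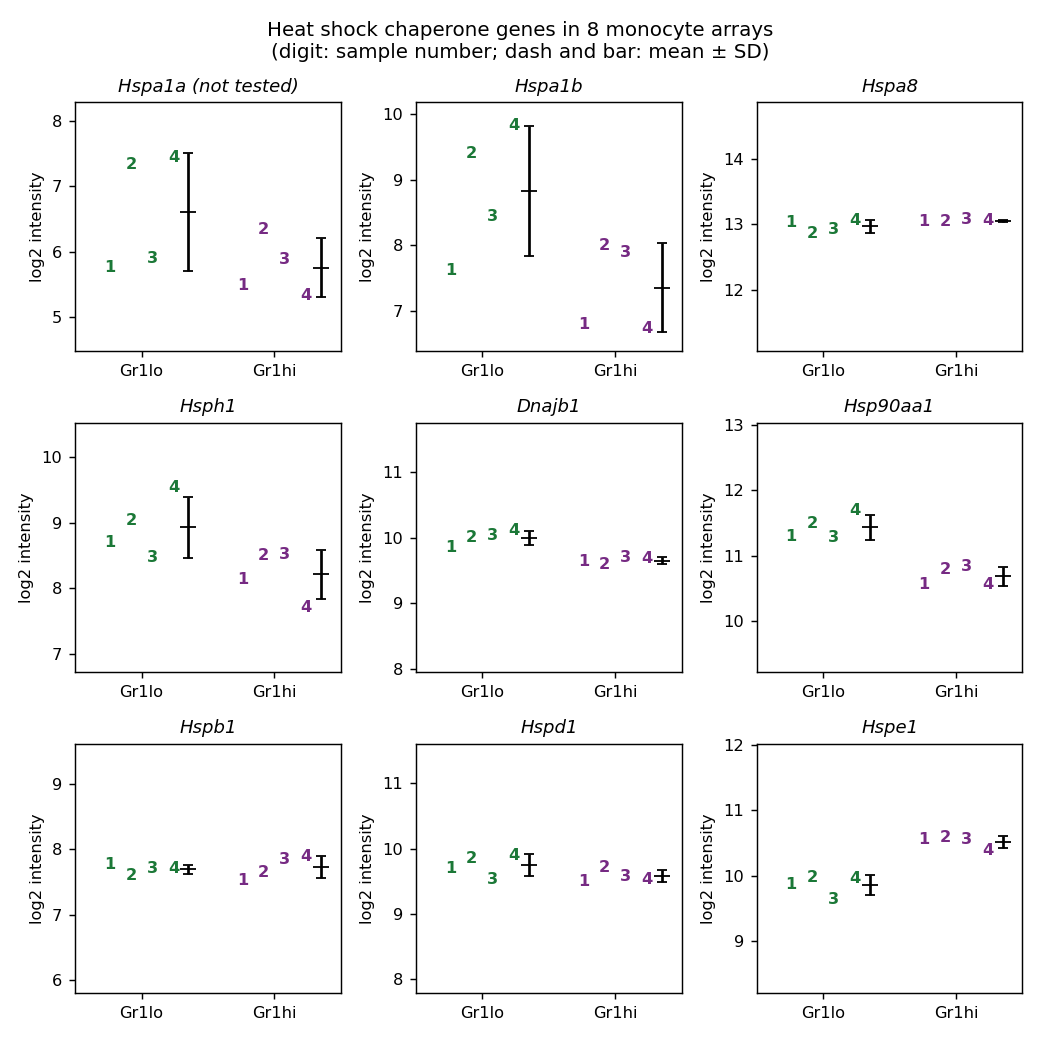
Intensity of each member's brightest tested probe set (Hspa1a: its untested probe set) in the 8 arrays, on a log2 axis that spans the same range in every panel, with Gr1lo left of Gr1hi. Digits are the sample numbers, and the dash with its bar is the mean ± SD of the 4 log2 values. Hspa1b spreads over 196 to 910 in Gr1lo and 106 to 255 in Gr1hi and overlaps, while Dnajb1, Hsp90aa1 and Hspe1 separate the subsets.

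Hspa1b, the stress-inducible HSP70, had the largest difference of the set and the widest spread. Its brightest probe set read 196, 678, 348 and 910 in Gr1lo samples 1 to 4, against 110, 255, 236 and 106 in Gr1hi samples 1 to 4. Gr1lo samples 2 and 4 were high and stood above all Gr1hi samples, while Gr1lo 1 lay below Gr1hi 2 and Gr1hi 3, so the subsets overlapped. The difference was 1.47 ± 0.44 (SE, n = 4 each), a 2.78-fold higher level in Gr1lo, with an adjusted p of 0.0245 in limma and a 95% interval of 0.50 to 2.45.

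Both other probe sets of Hspa1b were called in the same direction. The dimmest read 106, 331, 116 and 400 in Gr1lo, against 39.5, 101, 97.7 and 37.0 in Gr1hi, and did not overlap. Because its Gr1hi mean lay under the table median, its fold is a bound: at least 2.46-fold higher in Gr1lo (limma adjusted p 0.0154). The middle probe set differed by 1.63 ± 0.50 (SE, n = 4 each, limma adjusted p 0.0282) and overlapped. Both of these dimmer probe sets passed the intensity filter through Gr1lo: every Gr1lo array lay over the table median, but of Gr1hi only Gr1hi 2 and Gr1hi 3 did.

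The Hspa1b call rested on which samples entered the fit. Without Gr1lo 2 the difference of the brightest probe set was 1.28 (limma adjusted p 0.0766), without Gr1lo 4 it was 1.14 (adjusted p 0.0702), without Gr1hi 1 it was 1.29 (adjusted p 0.0671) and without Gr1hi 4 it was 1.27 (adjusted p 0.0677). Without both samples numbered 4 it was 0.93 (limma adjusted p 0.153), and under limma's robust variance model the call was lost too (adjusted p 0.0823). The dimmest probe set, which did not overlap, lost its call without Gr1lo 2 (limma adjusted p 0.0524). It also lost it without both samples numbered 4, at 1.13 (limma adjusted p 0.105). A two-sided exact permutation test over the 70 orders of the 8 samples gave 0.0857 for the brightest probe set and 0.0286, the smallest p that test can give, for the dimmest.

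Hspa1a, the neighbour with a near-identical promoter, was dim. It read 54.2, 161, 59.8 and 173 in Gr1lo, against 44.8, 80.5, 59.0 and 40.3 in Gr1hi. Only Gr1lo 2 and Gr1lo 4 lay over the table median, the same 2 samples that were high for Hspa1b, and the subsets overlapped. The probe set did not pass the filter and has no call: its difference was 0.85 on the log2 scale, and its limma adjusted p with no filter was 0.148. The coding sequences of Hspa1a and Hspa1b are near-identical, so how far each probe set reads the other gene is uncertain.

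Hsph1, the HSP110 exchange factor of HSP70, read 414, 525, 353 and 742 in Gr1lo, against 280, 360, 365 and 208 in Gr1hi. Gr1lo 4 and Gr1lo 2 were the highest samples, Gr1lo 3 lay below Gr1hi 2 and Gr1hi 3, and the subsets overlapped. The difference was 0.72 ± 0.23 (SE, n = 4 each), 1.65-fold (limma adjusted p 0.0295). Its second probe set read 132, 215, 137 and 295 in Gr1lo, against 95.6, 125, 126 and 95.7 in Gr1hi, did not overlap and differed by 0.75 (limma adjusted p 0.0256).

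Like Hspa1b, Hsph1 depended on single samples. The difference of its brightest probe set was 0.69 without Gr1lo 2, 0.52 without Gr1lo 4, 0.70 without Gr1hi 1 and 0.55 without Gr1hi 4. The limma adjusted p was 0.0747 both without Gr1lo 2 and without Gr1lo 4, 0.0635 without Gr1hi 1 and 0.0780 without Gr1hi 4. Without both samples numbered 4 the difference was 0.35 (limma adjusted p 0.130).

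Dnajb1, the HSP40 that delivers substrates to HSP70, had a small and even difference. It read 921, 1032, 1052 and 1104 in Gr1lo, against 799, 772, 834 and 819 in Gr1hi. Every Gr1lo sample lay above every Gr1hi sample, and neither subset had a sample apart from the rest. The difference was 0.35 ± 0.07 (SE, n = 4 each), 1.27-fold (limma adjusted p 0.00233; 95% interval 0.20 to 0.50), and the second probe set gave 0.41 (limma adjusted p 0.00184) with no overlap.

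Hspa8, the constitutive HSP70 of the cytosol, did not pass the test at its bright probe sets. Its brightest probe set read 8324, 7412, 7730 and 8533 in Gr1lo, against 8413, 8414, 8569 and 8516 in Gr1hi. The subsets overlapped, with the lowest values in Gr1lo 2 and Gr1lo 3. The difference was -0.09 ± 0.06 (SE, n = 4 each; limma adjusted p 0.36).

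Of the other Hspa8 probe sets, one differed by -0.11 (limma adjusted p 0.298) and one by -0.22 (adjusted p 0.0927; 95% interval -0.42 to -0.02). The fourth and dimmest went the other way: it read 85.7, 133, 112 and 118 in Gr1lo, against 77.3, 93.9, 66.9 and 70.8 in Gr1hi. It was called at 0.53 ± 0.14 (SE, n = 4 each, limma adjusted p 0.0105), at least 1.35-fold higher in Gr1lo, although Gr1lo 1 lay below Gr1hi 2. This probe set passed the intensity filter through Gr1lo: every Gr1lo array lay over the table median, but of Gr1hi only Gr1hi 2 did. The probe sets of Hspa8 thus disagree, and which part of the transcript each reads was not analysed here.

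Hsp90aa1, the inducible cytosolic HSP90, was the most clearly separated gene among those higher in Gr1lo. Its brightest probe set read 2512, 2877, 2478 and 3295 in Gr1lo, against 1513, 1779, 1824 and 1516 in Gr1hi. Every Gr1lo sample lay above every Gr1hi sample, with Gr1lo 4 and Gr1lo 2 highest. The difference was 0.75 ± 0.10 (SE, n = 4 each), 1.68-fold (limma adjusted p 0.000174; 95% interval 0.52 to 0.97).

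The other bright probe sets of Hsp90aa1 gave larger differences. The first read 1555, 1825, 1435 and 2211 in Gr1lo, against 761, 952, 1041 and 827 in Gr1hi, a difference of 0.96 (limma adjusted p 0.000204). The second read 844, 931, 776 and 1039 in Gr1lo, against 413, 471, 589 and 440 in Gr1hi, a difference of 0.91 (limma adjusted p 0.000104). Neither overlapped. A pair of dim Hsp90aa1 probe sets, at 38.2 to 54.1 in Gr1lo and 39.7 to 53.6 in Gr1hi, never passed the table median and were not tested.

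Hspb1, the small heat shock protein HSP27, read 218, 194, 209 and 208 in Gr1lo, against 184, 200, 229 and 237 in Gr1hi. The subsets overlapped, and the difference was -0.03 ± 0.09 (SE, n = 4 each; limma adjusted p 0.834; 95% interval -0.22 to 0.16). Its second probe set differed by -0.06 (limma adjusted p 0.614). Among the other small heat shock proteins 4 were tested, and 1 was called: Hspb11, known as a component of intraflagellar transport, at -0.92 (limma adjusted p 2.4e-05), higher in Gr1hi.

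Hspd1 and Hspe1, the mitochondrial chamber and lid that share a stretch of promoter, had different results. Hspd1 read 830, 923, 740 and 954 in Gr1lo, against 719, 837, 765 and 740 in Gr1hi, and overlapped. Its difference was 0.17 ± 0.09 (SE, n = 4 each; limma adjusted p 0.183; 95% interval -0.02 to 0.36). Without Gr1lo 3 alone it was called, at 0.24 (limma adjusted p 0.0482).

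Hspe1 was lower in Gr1lo. Its brightest probe set read 929, 1006, 794 and 996 in Gr1lo, against 1505, 1534, 1501 and 1332 in Gr1hi, with no overlap, and 3 of the 4 Gr1hi samples lay close together with Gr1hi 4 below them. The difference was -0.66 ± 0.09 (SE, n = 4 each), 1.58-fold higher in Gr1hi (limma adjusted p 0.000105; 95% interval -0.85 to -0.47). The second probe set read 395, 435, 314 and 462 in Gr1lo, against 716, 621, 687 and 511 in Gr1hi, and differed by the same -0.66 (limma adjusted p 0.00219).

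**Figure D2:**
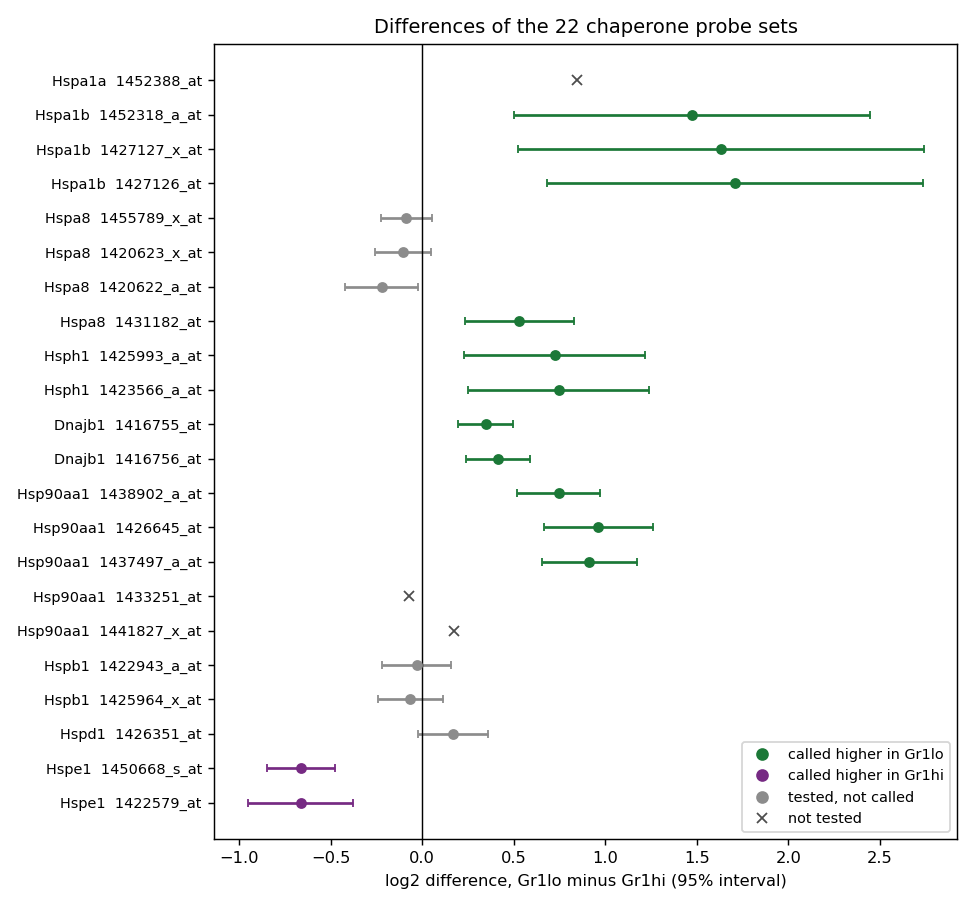
Log2 difference, Gr1lo minus Gr1hi (x axis), of the 22 member probe sets with their 95% intervals. Green marks probe sets called higher in Gr1lo, purple those called higher in Gr1hi, grey those not called, and crosses the 3 not tested. The 3 Hspa1b probe sets lie between 1.47 and 1.71 with wide intervals, the 3 tested ones of Hsp90aa1 between 0.75 and 0.96, and both Hspe1 probe sets at -0.66.

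Partners in the same machine were also set against each other within each array, as pairs chosen after their values were seen and therefore with no test. The log2 ratio of Hspd1 to Hspe1 was -0.16, -0.12, -0.10 and -0.06 in Gr1lo, against -1.07, -0.87, -0.97 and -0.85 in Gr1hi. Its mean was 0.83 higher in Gr1lo, with no overlap. The log2 ratio of Hsp90aa1 to Hspa8 was -1.73, -1.37, -1.64 and -1.37 in Gr1lo, against -2.48, -2.24, -2.23 and -2.49 in Gr1hi, also 0.83 higher in Gr1lo with no overlap. Only the difference of such a ratio between subsets can be read, since the levels of different probe sets are not comparable.

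Within each subset Hspa1b, Hsph1 and Hsp90aa1 moved with each other from sample to sample. Hspa1b had an SD of 0.99 on the log2 scale in Gr1lo and 0.68 in Gr1hi, where the median of all tested probe sets was 0.10 in Gr1lo and 0.11 in Gr1hi, and it lay at percentiles 99.96 and 99.92 of those spreads. Hsph1 had SDs of 0.47 in Gr1lo and 0.38 in Gr1hi. As deviations from the subset mean, Hspa1b stood at -1.21, 0.58, -0.38 and 1.01 in Gr1lo and at -0.56, 0.65, 0.53 and -0.62 in Gr1hi.

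The same samples were high for Hsp90aa1 and Hsph1. Hsp90aa1 stood at -0.14, 0.05, -0.16 and 0.25 in Gr1lo and at -0.13, 0.11, 0.14 and -0.12 in Gr1hi. Hsph1 stood at -0.24, 0.10, -0.47 and 0.60 in Gr1lo and at -0.08, 0.28, 0.30 and -0.51 in Gr1hi. In Gr1lo samples 2 and 4, and in Gr1hi samples 2 and 3, all 3 genes, and the dim Hspa1a probe set, lay above their subset's mean, and in the other samples all lay below it. Dnajb1 stood at -0.15, 0.01, 0.04 and 0.11 in Gr1lo and at -0.01, -0.06, 0.05 and 0.02 in Gr1hi, and did not follow this order in Gr1lo 3, Gr1hi 2 and Gr1hi 4.

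**Figure D3:**
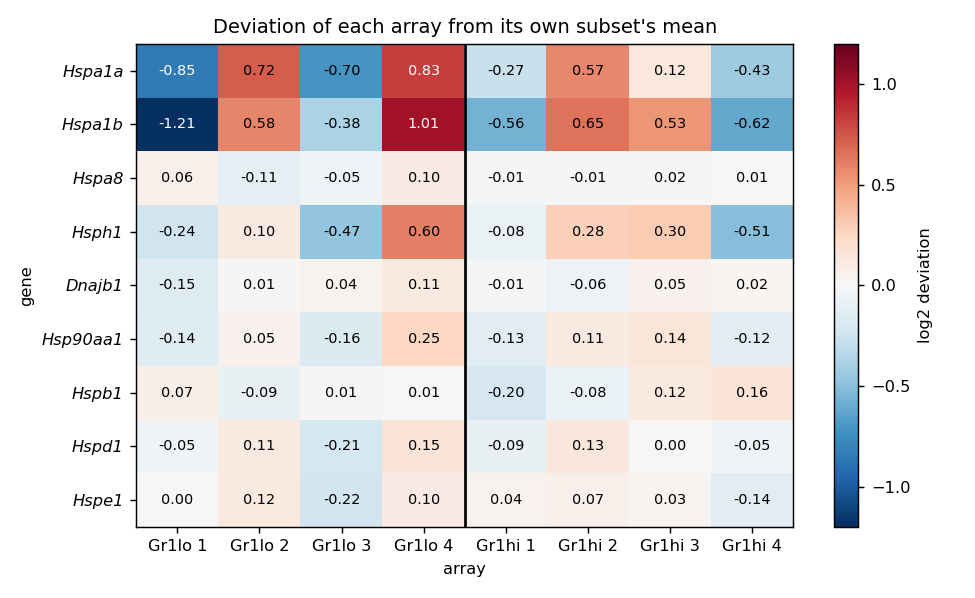
Heat map of each member's log2 deviation (rows) from its own subset's mean in each array (columns, Gr1lo left of Gr1hi), red above and blue below the mean. Hspa1b, Hspa1a, Hsph1 and Hsp90aa1 are above the mean in Gr1lo 2 and 4 and in Gr1hi 2 and 3. Hspa8 lies between -0.11 and 0.10, and Hspb1 between -0.20 and 0.16.

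Across the 8 arrays with subset means taken off, Pearson's r was 0.93 between Hspa1b and Hsp90aa1, 0.84 between Hspa1b and Hsph1, and 0.95 between Hsph1 and Hsp90aa1. These points share their arrays, their RNA and their amplification, so the values are a description. Hsp90aa1 ranked 10 among 11545 other genes by likeness to Hspa1b and 2 by likeness to Hsph1. Hspd1 had r of 0.75 with Hspa1b and 0.84 with Hsp90aa1, and Hspe1 had 0.57 and 0.70 with the same genes. Dnajb1 had r of 0.61 with Hspa1b, 0.48 with Hsp90aa1 and 0.33 with Hsph1. Hspa8 had -0.05 with Hspa1b and 0.27 with Hsp90aa1, and Hspb1 had -0.17 and -0.02.

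The genes most like each member were mostly no chaperones. By r over these 8 arrays, Hspa1b was most like Id2 (0.97), Cks2 (0.97) and Ttf1 (0.96). Hsph1 was most like Thnsl1 (0.95), Hsp90aa1 (0.95) and Dok2 (0.94), and Hsp90aa1 was most like Id3 (0.97), Rpain (0.96) and Dok2 (0.96). Hspa8 was most like Adck2 (0.97), Ccdc141 (0.96) and C2cd4b (0.96).

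A likeness between samples of a subset did not fix the direction between subsets. Id2, an inhibitor of basic helix-loop-helix transcription factors, read 400, 499, 436 and 488 in Gr1lo, against 610, 708, 685 and 609 in Gr1hi. It was thus high in the same samples as Hspa1b within each subset, but differed by -0.52 between subsets (limma adjusted p 0.000643), higher in Gr1hi. Id3, a relative of Id2, read 209, 295, 242 and 413 in Gr1lo, against 95.4, 141, 134 and 102 in Gr1hi, and was higher in Gr1lo by 1.27 (limma adjusted p 0.000353).

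**Figure D4:**
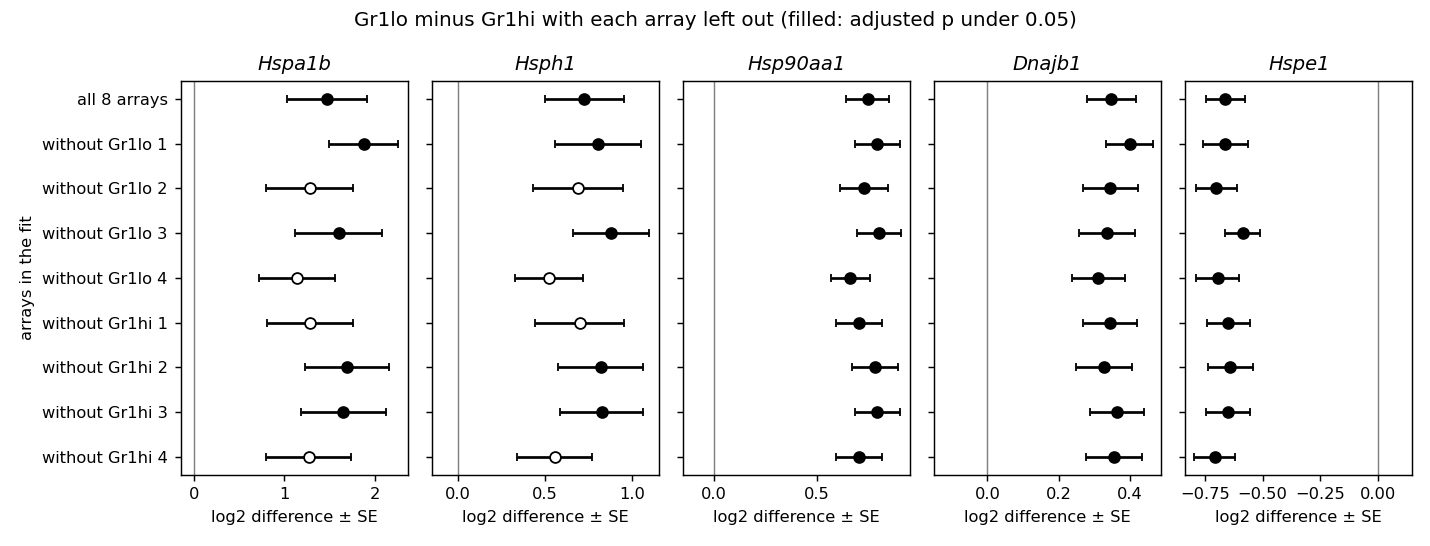
Log2 difference, Gr1lo minus Gr1hi, of the brightest probe set of 5 members with its SE (bars), over all 8 arrays and after leaving out each array in turn (rows), filled where the adjusted p was under 0.05. Hspa1b and Hsph1 lose their call without Gr1lo 2, Gr1lo 4, Gr1hi 1 or Gr1hi 4, while Hsp90aa1, Dnajb1 and Hspe1 are filled in every row.

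The wider chaperone network was read from lists of related genes, by counts beside the gene background of 14.1% and 18.5% above. Genes named as higher in a subset were called, with the log2 difference in brackets. Of 26 tested partners of HSP70 (other J-domain proteins, BAG-domain and other exchange factors), 5 were higher in Gr1lo and 5 in Gr1hi, with a median difference of 0.07. Those with the largest differences were Dnajc9 (0.44) and Dnajc8 (0.37), higher in Gr1lo, and Dnajb14 (-1.22) and Hspa4l (-0.72), higher in Gr1hi. Hspa4l is of the same HSP110 family as Hsph1, and read 126, 156, 105 and 165 in Gr1lo, against 223, 218, 249 and 208 in Gr1hi.

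Of 24 tested HSP90 co-chaperones, 3 were higher in Gr1lo and 3 in Gr1hi, with a median of -0.03. Stip1 (HOP), the adaptor that holds HSP70 and HSP90 together, read 320, 423, 287 and 409 in Gr1lo, against 225, 240, 230 and 207 in Gr1hi. Every Gr1lo sample lay above every Gr1hi sample, with Gr1lo 2 and 4 highest, and the difference was 0.66 ± 0.12 (SE, n = 4 each; limma adjusted p 0.00116). Tomm34 was also higher in Gr1lo (0.28), and Fnip2 (-1.11) and Sugt1 (-0.29) were higher in Gr1hi.

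Of 18 tested genes that heat shock is known to induce along with the chaperones, 5 were higher in Gr1lo and 1 in Gr1hi, with a median of 0.12. Stip1 (0.66) and Ier5 (0.65, an immediate early gene known to act on HSF1; limma adjusted p 0.000445) led the first and Hspa4l (-0.72) was the second. Over the 18 genes, the mean log2 level was 9.01, 9.13, 8.99 and 9.15 in Gr1lo, against 8.96, 8.95, 8.92 and 8.88 in Gr1hi. Gr1lo 2 and 4 were again highest, and Gr1hi 1 was the highest Gr1hi sample, unlike for Hspa1b.

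Of 13 tested heat shock factors and their regulators, 2 were higher in Gr1lo and 3 in Gr1hi, with a median of -0.09. Stub1, the ubiquitin ligase CHIP that works on HSP70 clients (0.32), and Crebbp, an acetyltransferase (0.23), were higher in Gr1lo. Ywhae, a 14-3-3 protein (-0.36), and Mapkapk2, a stress kinase (-0.24), were higher in Gr1hi. The probe sets of Hsf2, Hsf4 and Hsf5 did not pass the intensity filter, and Hsf1 was not analysed here.

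Other chaperone families, of the cytosol, the mitochondria and the endoplasmic reticulum, gave even splits. Of 15 tested CCT and prefoldin subunits, 1 (Cct3, 0.33) was higher in Gr1lo and 1 (Cct5, -0.33) in Gr1hi. Of 15 tested mitochondrial chaperones and proteases, 3 were higher in Gr1lo and 3 in Gr1hi, led by Htra2 (1.35, at a probe set whose suffix marks a possible match to several transcripts) and Yme1l1 (0.30) in Gr1lo and by Dnajc15 (-0.82) and Bcs1l (-0.61) in Gr1hi. Of 19 tested chaperones of the endoplasmic reticulum, 2 were higher in Gr1lo, the lectin chaperone Calr (0.56) and the HSP70 Hspa5 (0.29, with overlap), and 2 in Gr1hi, the disulfide isomerase P4hb (-0.49) and the J-domain reductase Dnajc10 (-0.25).

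Genes of other stress responses were read beside the chaperones because dissociation and sorting of cells are known to induce them. Of 19 tested immediate early genes, 8 were higher in Gr1lo and 3 in Gr1hi, with a median of 0.20, and their best known members went in opposite directions. Jun read 358, 500, 318 and 420 in Gr1lo, against 183, 157, 99.7 and 99.1 in Gr1hi, a difference of 1.60 (limma adjusted p 8.8e-05). Fos read 727, 1248, 480 and 423 in Gr1lo, against 3293, 4116, 2435 and 2838 in Gr1hi, a difference of -2.25 (limma adjusted p 9.8e-05).

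Neither of these genes overlapped between subsets. Nr4a1 (1.23), which nonclassical monocytes are known to need, was higher in Gr1lo, and Atf3 (-0.82) was higher in Gr1hi. Of 7 tested oxidative stress genes, 3 were higher in Gr1lo, led by Txnrd1 (0.60) and Osgin1 (0.35), and 1, Txn1 (-0.29), in Gr1hi. The mean log2 level of the immediate early genes was 9.62, 9.77, 9.50 and 9.53 in Gr1lo, against 9.62, 9.59, 9.39 and 9.42 in Gr1hi. Gr1lo 4, the highest sample for Hspa1b, was not high by this mean, but single genes of the list differed. Within Gr1lo, Jun was highest in samples 2 and 4, and Fos was lowest in sample 4. Whether sorting stress had a part was not tested.

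**Figure D5:**
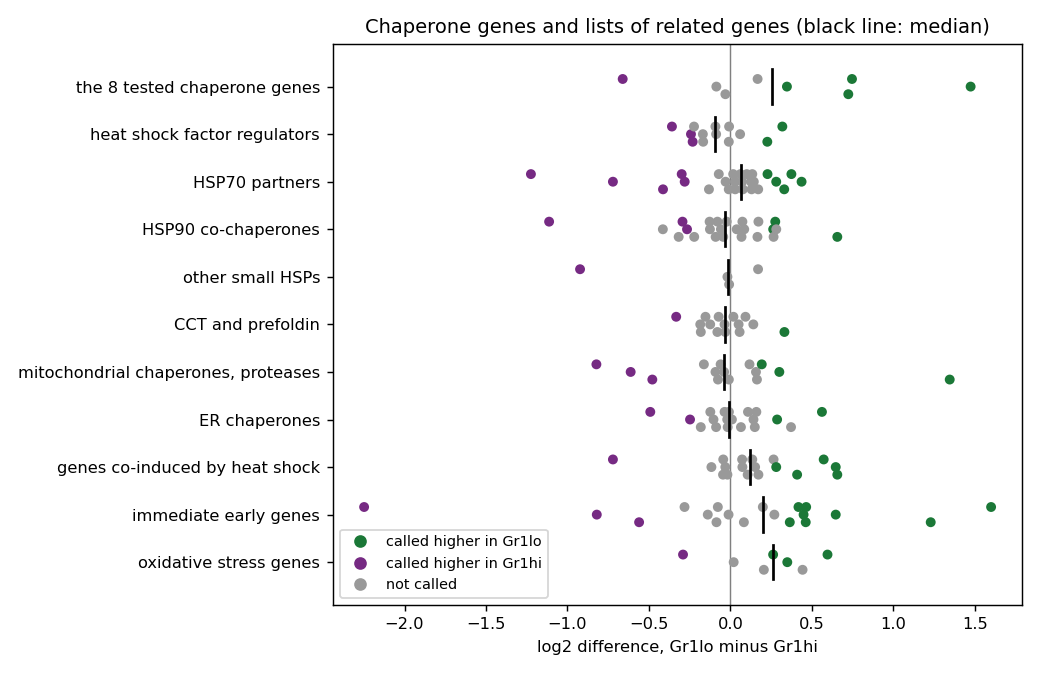
Log2 difference, Gr1lo minus Gr1hi (x axis), of each tested gene (points) in the chaperone set and in each related list (rows), with a black line at the list's median, green for genes called higher in Gr1lo, purple for Gr1hi and grey for not called. The heat shock induced list (5 against 1) and the immediate early list (8 against 3) hold more genes higher in Gr1lo, and the HSP70 and HSP90 partner lists are split evenly.

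Markers of other blood cells were read for the same arrays, and their part in these results was not tested. Their counts stand beside the gene background of 14.1% called higher in Gr1lo and 18.5% called higher in Gr1hi. Summed neutrophil markers ran from 1554 to 1909 in Gr1lo against 2311 to 2878 in Gr1hi, with 4 of 9 called higher in Gr1hi. The largest part of that sum was Csf3r, at 796 to 962 in Gr1lo against 1190 to 1363 in Gr1hi. Beside Csf3r (-0.56), S100a8 (-1.82, with overlap), Lcn2 (-1.62) and Mpo (-0.24) were called higher in Gr1hi. S100a9, Camp, Ltf, Ngp and Elane were not called. S100a8 and Lcn2 were dim in Gr1lo and passed the intensity filter through their Gr1hi arrays. Summed NK cell markers ran from 889 to 1104 in Gr1lo against 550 to 657 in Gr1hi, with 2 of 3 called higher in Gr1lo. These were Klrd1 (1.67) and Gzma (0.71), and Klrd1 passed the intensity filter through its Gr1lo arrays. Summed markers of T cells (907 to 1090 in Gr1lo against 899 to 992 in Gr1hi) and B cells (3648 to 4744 in Gr1lo against 3636 to 5049 in Gr1hi) overlapped. Of 7 tested B cell markers, Cd22 (1.27) was called higher in Gr1lo, and Ms4a1 (-1.14) and Cd79a (-0.83) were called higher in Gr1hi. Both Ms4a1 and Cd79a passed the intensity filter through their Gr1hi arrays. Summed dendritic cell markers did not overlap, at 1520 to 2033 in Gr1lo against 1269 to 1474 in Gr1hi. The largest part of the sum was Cd209a alone, at 879 to 1284 in Gr1lo against 466 to 617 in Gr1hi. Of 5 tested, Cd209a (0.90) was called higher in Gr1lo and Flt3 (-0.55) in Gr1hi, and Zbtb46, Siglech and Ccr7 were not called. These marker genes are named after their values were seen. Summed platelet genes, all 8 of them tested, ran from 2465 to 6230 in Gr1lo against 2146 to 4894 in Gr1hi and were highest in Gr1lo 1. Summed red cell genes, 1468 to 5852 in Gr1lo against 1397 to 4118 in Gr1hi, were highest in the same sample.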

How the data were processed

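Per the labels, RNA of sorted monocytes was hybridised to 1 Affymetrix array per sample, for 4 Gr1lo and 4 Gr1hi samples. The authors deposited probe set intensities on a linear scale. GCRMA and MAS5 appear in the submitters' processing notes without a version or a role, so the normalization behind these values is not known. Long amplification and the 3' position of probes can change the size of a ratio.

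Values were taken to log2 with no further normalization. Control probe sets (64) were left out. Of the rest, 34945 had 1 gene symbol, 932 had several and 9160 were unnamed here, and only the first entered gene counts. The fit was made in R 4.3.3 with the limma package, version 3.58.1 (functions lmFit and eBayes), with a two-sided test and Benjamini-Hochberg adjustment over 22831 probe sets. The median SE was 0.08 on the log2 scale, and 4 arrays per subset limit the precision. The fit was tested on simulated data. A gene stands for its tested probe set with the highest mean. A fold is a bound, set against the table's median value, where the dimmer subset's mean lay under it. Only 1 pair of groups was compared. Alternatives were a replicate block, leaving out arrays, other filters, scalings, variance models, array weights, probe set choices and a threshold of 0.01.

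The members and lists were chosen with earlier results of these data known. Named genes are all members, in each list the 2 called genes with the largest difference in each direction, and 3 genes most like each of 4 members. Promoter sequences and positions are from RefSeq, GRCm38.p6. Same-numbered samples had correlations of their deviations of 0.27, 0.34, -0.03 and -0.10, so the numbers were not taken to pair them. By these correlations Gr1lo 3 and Gr1hi 4 were each other's best match, as were Gr1lo 4 and Gr1hi 3, and Gr1lo 2 and Gr1hi 2. Gr1lo 1 was most like Gr1hi 1, but Gr1hi 1 was most like Gr1lo 2. A pairing across numbers was not tested, so overlaps and calls treat the samples as unpaired, except with the replicate number as a block.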

Additional observations from a re-analysis of the deposited data

Results flagged for a closer look

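In 1 of 44 groups of 4 arrays, a value lay apart from the others by Dixon's criterion, and chance gives such a group about 1 time in 20. It was Hspe1 in Gr1hi 4, at 1331.7 at the brightest probe set, where the other Gr1hi samples lay between 1501.24 and 1533.82 and the gap took 0.848 of the whole range on the log2 scale. The value is still above all 4 Gr1lo samples of Hspe1. Without Gr1hi 4 the gene was still called, at -0.71 (limma adjusted p 0.000153).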

How the results depend on the processing

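The counts of calls and the members' differences were recomputed under 24 other settings, 12 that left out arrays and 12 others. A member's probe set has from 21 to 24 of them, since some settings leave out probe sets or give 1 value per gene, and ratios, likeness and promoter counts were not recomputed. No called difference of a member changed direction. Hsp90aa1 (0.62 to 0.87 over the settings), Dnajb1 (0.31 to 0.40) and Hspe1 (-0.74 to -0.58) were called in all of those run for their brightest probe set. Leaving out arrays, from 2 to 5 member genes and from 5 to 12 member probe sets were higher in Gr1lo, from 2 to 3 member probe sets and always 1 member gene were higher in Gr1hi, and over all probe sets from 2465 to 3486 were higher in Gr1lo and from 2844 to 3536 in Gr1hi. Without both samples numbered 1, Hsph1 alone of the 4 genes was lost at its brightest probe set (limma adjusted p 0.0699). Its second probe set stayed called (adjusted p 0.0282). Without both samples numbered 2, neither Hspa1b (adjusted p 0.0602) nor Hsph1 (adjusted p 0.0718) was called at its brightest probe set. The dimmest Hspa1b probe set stayed called there (adjusted p 0.0399). Without Gr1lo 4, the third Hspa8 probe set was called, at -0.29 (adjusted p 0.0365), higher in Gr1hi. With robust eBayes, Hspa1b was not called at its brightest probe set (adjusted p 0.0823). At a threshold of 0.01, 5 member probe sets and 2 member genes (Dnajb1 and Hsp90aa1) were higher in Gr1lo, and 2290 probe sets in all. With a filter at the 75th percentile of means, 14 member probe sets were tested and 7 were higher in Gr1lo. Without probe sets of a shared-transcript suffix, 7 member probe sets were tested, 5 higher in Gr1lo and 1 in Gr1hi, Hsph1 had none left, Hspa8 was called through its dimmest probe set, and 2304 probe sets in all were higher in Gr1hi. That dimmest probe set of Hspa8 lost its call without both samples numbered 3 (adjusted p 0.0525) or numbered 4 (adjusted p 0.0738). With the replicate number as a block, 4 member genes were higher in Gr1lo and 1 in Gr1hi, with 3547 and 3617 probe sets in all, and no call of a member gene changed. Of 460 counts for the related lists, 77 moved by over 1.5 times. Probe sets near the background, such as those of Hspa1a, give only a bound or no call.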

Other observations

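Fkbp5, an HSP90 co-chaperone and a known target of glucocorticoids, was picked after its values were seen, since it spread over the samples as widely as Hspa1b. It read 218, 1112, 263 and 519 in Gr1lo, against 360, 1224, 773 and 306 in Gr1hi. Its SD was 1.07 on the log2 scale in Gr1lo and 0.94 in Gr1hi, at percentiles 99.97 and 99.99 of all tested probe sets, and its highest sample was 5.11 times its lowest in Gr1lo and 4.01 times in Gr1hi. The high samples were Gr1lo 2 and 4 and Gr1hi 2 and 3, as for Hspa1b, with r of 0.86 over the 8 arrays after subset means were taken off. The subsets overlapped, and the difference of -0.41 was not called (limma adjusted p 0.615).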
